A study of Mus musculus with 9 samples.

Results

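Livers of mice given dichloroacetyl chloride (DCAC), a reactive acyl chloride, were compared with livers of mice given its vehicle, corn oil. The comparison uses 5 of the 9 samples in the study: the arrays DCAC 1, DCAC 2 and DCAC 3 against control 1 and control 3. The array named control 2 was set aside because its profile carried kidney transcripts, and its effect is given through a second fit that includes it. Each array holds the liver RNA of a single female MRL +/+ mouse, a strain used as a model of autoimmune disease. DCAC was injected into the peritoneum at 0.2 mmol/kg in 100 µl of corn oil, 2 times per week over 6 weeks, starting at 5 weeks of age. Livers were taken at 11 weeks of age, 24 h after the last injection. By the study's design the control mice were injected with corn oil alone, although their sample labels say untreated. The other 3 arrays come from mice on the same schedule and molar dose of dichloroacetic anhydride (DCAA), and they enter only through the shared estimate of the spread and through a direct comparison of the 2 compounds.

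The acute phase response is a programme in which the liver makes more of a set of defence proteins and releases them into the blood. Interleukin-6 and interleukin-1 drive it in hepatocytes through the transcription factors STAT3, NF-kB and the C/EBP family. Serum amyloid A proteins are among its main products in the mouse, and other plasma proteins such as albumin and transthyretin are classically made at a lower rate while it lasts. Metallothioneins, small proteins that bind zinc, are induced in liver by the same cytokines, by glucocorticoids and by metals.

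Without control 2, 8 probe sets of 7 genes rose with DCAC and 0 fell. The risers were 4 acute phase genes (Saa1, Saa2, Lcn2 and Orm2), the metallothionein genes Mt1 and Mt2, and Cyp7a1, whose enzyme sets the rate at which cholesterol is turned into bile acids. The 8 probe sets are 0.0326% of the 24531 tested, and the share that fell is 0.0%, at a limma adjusted p under 0.05 over all of them. Without any correction, 606 probe sets (2.47%) were higher and 626 (2.55%) lower at a p under 0.05, so nearly equal numbers leaned each way, and 11322 (46.2%) had a positive difference whatever their p. Counted by genes, each through its brightest probe set, the 7 that rose are 0.0569% of 12293. Since the RNA came from whole liver, a change in the number of cells of a type and a change in RNA per cell cannot be told apart.

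The serum amyloid A genes showed the widest separation between the groups. Serum amyloid A proteins bind to high-density lipoprotein in the blood during inflammation. Signals, in arbitrary units on a linear scale, were 1557 and 1541 for Saa2 on controls 1 and 3, and 28330, 42795 and 42782 on DCAC 1 to 3. The difference in log2 signal was 4.59 (SE 0.57, limma adjusted p = 0.0149), which is 24.1-fold (95% interval 10.2 to 56.9). For Saa1 the brightest probe set read 2954 and 3699 on the controls and 46752, 56348 and 65821 on the DCAC arrays. Its difference was 4.08 (SE 0.40, limma adjusted p = 0.00308), or 16.9-fold, and the other Saa1 probe set stood at 3.64 (SE 0.29, limma adjusted p = 0.000567). Every DCAC array was above both controls by a wide gap, and the groups did not approach each other. The highest signal of any probe set was between 51280 and 77612 on the DCAC arrays, so Saa1 lay near the top of the range. The brightest probe sets of Saa1 and Saa2 bear the manufacturer's suffixes for probes that can match related transcripts, so the share of each gene in these signals is uncertain.

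Lcn2 encodes lipocalin 2, which withholds iron from bacteria by binding their siderophores, and it is made by both hepatocytes and neutrophils. It read 2465 and 2875 on the controls and 33163, 32912 and 39961 on the DCAC arrays. The 3 treated livers lay close together, and the difference was 3.72 (SE 0.41, limma adjusted p = 0.00602), or 13.2-fold. Orm2 encodes an orosomucoid, an acidic plasma glycoprotein that carries drugs and lipids. Its signals were 1067 and 1232 on the controls and 10932, 12726 and 13648 with DCAC, again without overlap. That is a difference of 3.43 (SE 0.40, limma adjusted p = 0.00843), or 10.8-fold.

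The promoters of these 4 genes are shown because the genes rose together and C/EBP factors are classical regulators of the acute phase. Each window is the 250 bases just before the transcription start in RefSeq (mouse GRCm38.p6), written 5′ to 3′ on the strand of the gene. Capitals mark a match to the C/EBP motif searched, TTGCNNAA. Saa2 lies on the plus strand at chr7:46751583-46751832 and Saa1 on the minus strand at chr7:46742981-46743230. Lcn2 lies on the minus strand at chr2:32387740-32387989 and Orm2 on the plus strand at chr4:63362199-63362448.
Saa2: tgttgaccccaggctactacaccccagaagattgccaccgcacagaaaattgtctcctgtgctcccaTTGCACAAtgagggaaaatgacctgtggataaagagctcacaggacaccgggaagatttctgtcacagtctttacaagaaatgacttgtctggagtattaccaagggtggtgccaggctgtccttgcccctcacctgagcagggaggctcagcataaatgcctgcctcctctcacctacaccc
Saa1: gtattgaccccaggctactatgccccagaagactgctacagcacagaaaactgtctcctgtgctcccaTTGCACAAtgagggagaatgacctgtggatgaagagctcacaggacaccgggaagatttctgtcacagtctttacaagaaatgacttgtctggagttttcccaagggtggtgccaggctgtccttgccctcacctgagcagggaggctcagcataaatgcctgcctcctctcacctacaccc
Lcn2: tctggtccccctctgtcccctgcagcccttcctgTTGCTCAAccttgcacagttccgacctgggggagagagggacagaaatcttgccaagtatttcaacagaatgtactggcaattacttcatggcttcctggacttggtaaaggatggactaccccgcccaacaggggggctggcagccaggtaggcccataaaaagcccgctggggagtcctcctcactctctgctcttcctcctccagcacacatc
Orm2: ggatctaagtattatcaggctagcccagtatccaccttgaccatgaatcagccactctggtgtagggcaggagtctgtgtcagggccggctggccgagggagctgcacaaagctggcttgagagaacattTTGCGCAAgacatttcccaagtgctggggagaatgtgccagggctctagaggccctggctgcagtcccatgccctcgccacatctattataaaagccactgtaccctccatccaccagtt

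The C/EBP motif was found in 4 of 4 windows, on either strand, and in 9.56% of the 32851 promoter windows of this length. It began 183 bases before the start in Saa2, 182 in Saa1, 216 in Lcn2 and 120 in Orm2. A STAT motif, TTCNNNGAA, was in 0 of the 4 windows and 7.02% of all, and the NF-kB consensus was in 0 of 4 and 7.25% of all. The Saa1 and Saa2 windows were 94.8% identical over 251 aligned columns, so they are not independent examples. These are matches of letters, not measured binding sites.

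Mt2 and Mt1 also rose on all 3 treated arrays. Mt2 read 5010 and 8386 on the controls and 24170, 37700 and 28301 with DCAC, a difference of 2.19 (SE 0.28, limma adjusted p = 0.0159), or 4.56-fold. The brighter Mt1 probe set read 15878 and 14084 on the controls and 32318, 44380 and 46886 with DCAC. Its difference was 1.44 (SE 0.20, limma adjusted p = 0.0349), or 2.72-fold, and the dimmer one stood at 1.70 without passing (limma adjusted p = 0.142). Controls and treated livers did not overlap for either gene. Cyp7a1 read 1560 and 3225 on the controls and 7461, 8507 and 12225 with DCAC. The controls differed from each other by more than the other called genes did, and the lowest treated liver was still above the higher control. The log2 difference was 2.03 (SE 0.28, limma adjusted p = 0.0312), or 4.10-fold, through the brighter of 2 probe sets. The dimmer stood at 0.93 and did not pass (limma adjusted p = 0.634).

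**Figure D1:**
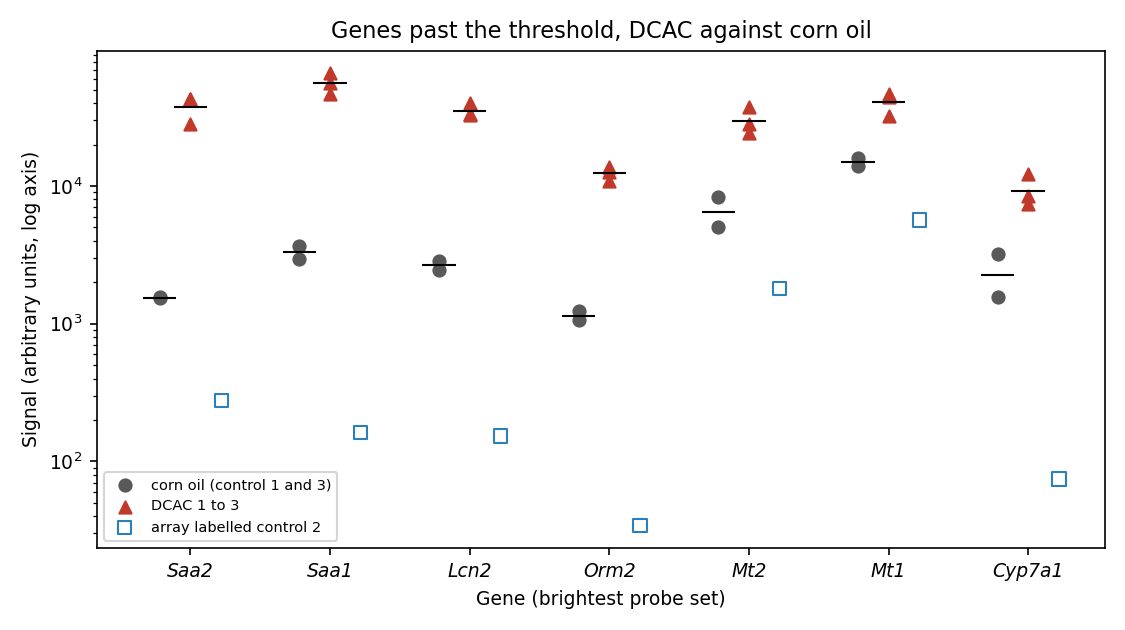
Signal of the 7 genes that passed, by array, on a log axis in arbitrary units, with a bar at the mean of each group; circles are control 1 and control 3, triangles the 3 DCAC arrays and open squares the array named control 2. The triangles lie above the circles for every gene, from a 24.1-fold gap for Saa2 to 2.72-fold for Mt1, and control 2 lies below all of them.

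Control 2 and DCAC 3 set limits on these calls. On control 2, 23 of 23 kidney tubule markers had their highest signal of the 9 arrays and 16 of 20 hepatocyte markers their lowest. Umod, the kidney protein uromodulin, read 20921 there and 8.90 to 143 on the other 8 arrays, while Ttr, liver transthyretin, read 22.1 there against 42541 to 64893. Among the hepatocyte markers Hnf4a, at 12777, was within the range of the others, 9429 to 15132. Hepatocyte markers were at full level on the 5 arrays compared here, with a summed signal of 553450 to 584193 on the controls and 566512 to 722180 on the DCAC arrays. RNA and labelling quality can be read from the 3′ to 5′ signal ratio of pyruvate carboxylase, which was 12.8 on DCAC 3. It was 3.32 to 3.93 on the 2 controls and 2.85 to 3.99 on DCAC 1 and 2.

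**Figure D2:**
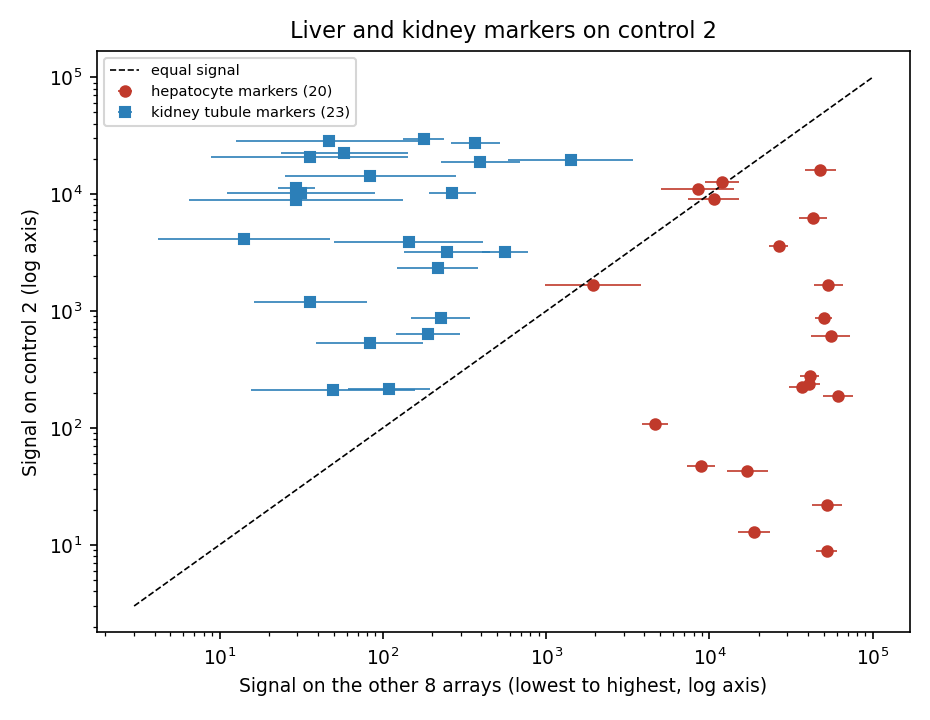
Signal on control 2 (vertical) against the signal on the other 8 arrays (horizontal) for 20 hepatocyte and 23 kidney tubule markers. Both axes are log axes in arbitrary units. Lines run from the lowest to the highest array, and each point is the midpoint of its line on the log axis. All 23 kidney markers lie above the line of equal signal, and most hepatocyte markers lie far below it.

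With control 2 included beside control 1 and control 3, limma called 0 of 25146 probe sets, although 1336 had an unadjusted p under 0.05. All 8 probe sets were then still higher with DCAC, and by more: 5.42 for Saa2, 5.52 for Saa1, 5.10 for Lcn2, 4.85 for Orm2 and 3.67 for Cyp7a1, each with a limma adjusted p of 0.765. The signal on control 2 was 163 for Saa1, 34.4 for Orm2 and 74.6 for Cyp7a1, below either of the other controls. Without DCAC 3, 2 probe sets passed, both of Saa1, and the brighter stood at 3.96 (limma adjusted p = 0.0399, with 3.58e-07 to 0.256 over 21 alternatives). The differences of the other called genes without DCAC 3 were 4.49 for Saa2, 3.63 for Lcn2, 3.36 for Orm2, 2.22 for Mt2, 1.34 for Mt1 and 1.83 for Cyp7a1. All 7 genes were thus still higher without that array, and the part of its high 3′/5′ ratio in the calls was not tested further. Without DCAC 2, 4 of the 8 probe sets passed, those of Saa1, Lcn2 and Orm2, and 1 other probe set passed as lower. Leaving out control 1 or control 3 leaves 1 control array, so no count is given for those fits. All 8 probe sets were still higher with DCAC in both.

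The direct comparison of the 2 compounds at the same molar dose and time bears on these genes. It is limited by the pyruvate carboxylase ratio, which was 6.43, 8.38 and 10.9 on DCAA 1 to 3. Of the DCAC arrays only DCAC 3, at 12.8, was as high, with 2.85 and 3.99 on DCAC 1 and 2. Compound and ratio thus largely coincide, and the part of the ratio in the differences below was not tested. DCAC and DCAA differ in the group attached to the dichloroacetyl group, which is chloride in DCAC and dichloroacetate in DCAA. Of the 24531 probe sets 1 (0.00408%) passed between them, that of Dusp1, and none of the 7 genes above, while 2277 (9.28%) had an unadjusted p under 0.05. The difference, DCAC minus DCAA, was 0.61 for Saa2 (95% interval -0.50 to 1.72), 0.37 for Saa1 (-0.41 to 1.15), 0.23 for Lcn2 (-0.56 to 1.01) and 0.48 for Orm2 (-0.29 to 1.25). It was 0.03 for Mt2 (-0.51 to 0.58) and -0.14 for Mt1 (-0.53 to 0.26), so for these 6 genes the intervals include 0 and do not show that the compounds act alike. Cyp7a1 stood 1.45 higher with DCAC (0.91 to 2.0, limma adjusted p = 0.285), with DCAA signals of 3674, 2821 and 3657, all below the DCAC range. Each compound was set against the same 2 controls, which the comparisons with corn oil therefore share. Beside the 2.03 of DCAC, Cyp7a1 with DCAA was 0.58 from corn oil and did not pass (limma adjusted p = 0.420).

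The acute phase list held more genes on the high side than the 4 that passed. Of its 35 measured genes 21 had all 3 DCAC arrays above both controls and 1 had them all below, against 12.9% and 11.6% of all genes. An unadjusted p under 0.05 with a higher signal was found for 18, against 2.86% of all genes. The median log2 difference was 0.42, against -0.03 over all probe sets and -0.0012 with 1 probe set per gene. It was 0.35 without DCAC 3 and 0.27 with quantile normalization. Hepatocyte markers also leaned up, with 17 of 20 higher and a median of 0.19, which was -0.02 with that normalization. Orm3, another orosomucoid gene, read 730 and 612 on the controls and 1880, 1574 and 1539 with DCAC (difference 1.31, limma adjusted p = 0.0648). Orm1, the third orosomucoid gene, stood at 0.85 (limma adjusted p = 0.316). Both thus stood apart from the controls without passing. Nnmt, which methylates nicotinamide, read 1686 and 2310 against 6060, 4463 and 5538 (1.43, limma adjusted p = 0.0600). Lrg1, a leucine-rich plasma glycoprotein, was at 1.09 and Apcs, serum amyloid P, the main pentraxin of mouse acute phase plasma, at 0.84. Crp, a pentraxin that is a minor acute phase protein in mice, was at 0.27. Saa3, made largely outside hepatocytes, stood at 1.55 from low signals of 343 and 640 to 1294, 1545 and 1301. Saa4, the constitutive serum amyloid A gene, was at 0.38. Hamp, which encodes the iron hormone hepcidin and responds to interleukin-6, read 35067 and 36859 on the controls and 35799, 16342 and 44551 with DCAC. The treated values of Hamp lay on both sides of the controls, and its difference of -0.28 turned to 0.15 without DCAC 2.

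No transcript of the signalling arm passed. Of 27 measured genes for the cytokines, receptors and transcription factors of the response, 0 had an unadjusted p under 0.05. The median was -0.02. Over all genes 2.86% were higher and 2.61% lower at that p, so a count of 0 among 27 does not set the list apart. Stat3, the factor downstream of the interleukin-6 receptor, read 7441 and 6782 on the controls and 4990, 7025 and 10040 with DCAC, a difference of -0.01. Socs3, a feedback inhibitor of that pathway, was at -0.39, Cebpb at -0.19 and Cebpd at -0.19, with overlapping groups in each case. Another Socs3 probe set stood on the other side, at 0.49 (limma adjusted p = 0.978). Il1b, the gene of interleukin-1 beta, was at -0.57, and Myd88, an adaptor of its receptor, at -0.33. Cebpa at 0.28 had all treated arrays above both controls, while those of Lifr, a receptor subunit for leukemia inhibitory factor, at 0.29 overlapped. The signs of Stat3, Socs3, Cebpb and Cebpd turned with the array left out, so no direction can be given for them.

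No classical negative acute phase gene had a lower mean log2 signal with DCAC. All 14 measured had a positive difference, against 49.8% of all genes, with a median of 0.20, which was 0.00 with quantile normalization, and none passed. Alb, albumin, read 43840 and 45064 on the controls and 43741, 52976 and 62207 with DCAC, and Ttr read 43774 and 44528 against 42541, 51010 and 57681. In both genes DCAC 1 matched the controls and DCAC 3 was highest, and both differences (0.24 and 0.18) became -0.0031 and -0.024 under that normalization. The smallest p-values belonged to Fetub, a fetuin, at 0.52, Serpinc1, antithrombin, at 0.35, and Igf1, the liver's growth factor output, at 0.34. Serpina6, corticosteroid-binding globulin, was at 0.32.

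Complement and coagulation genes, most of them also secreted by hepatocytes, leaned the same way. Of 36 measured, 20 had every DCAC array above both controls and 0 had every one below, where 12.9% and 11.6% of all genes did. An unadjusted p under 0.05 with a higher signal was found for 11, against 2.86% of all genes, and the median was 0.28. C8a, a chain of the membrane attack complex, read 10523 and 10524 on the controls and 15184, 19478 and 15516 with DCAC (0.66, limma adjusted p = 0.523). C9, the pore-forming component, was at 0.59, C8b at 0.51 and C4bp, an inhibitor of the classical pathway, at 0.47. None passed. The median was 0.18 without DCAC 3 and 0.11 with quantile normalization.

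Beyond the metallothioneins, no zinc or iron gene passed. Of 20 genes for metallothionein and zinc handling, 2 rose, 5 had every DCAC array above and 5 every array below both controls, and the median was 0.03. Over all genes those shares were 0.0569% for a rise, 12.9% above and 11.6% below. Slc39a7, a zinc transporter of the endoplasmic reticulum and Golgi, stood at -0.59 and Slc30a10, a manganese exporter of the zinc transporter family, at -0.57. In the iron and heme list of 23 genes 3 had an unadjusted p under 0.05, all lower (2.61% of all genes): Smad7 at -1.08, Tfrc, transferrin receptor 1, at -1.06, and Id1 at -0.85. Smad7 and Id1 are targets of the bone morphogenetic protein pathway that controls hepcidin. Smad7 read 653 and 860 on the controls and 335, 297 and 450 with DCAC. Tfrc read 3233 and 1551 on the controls against 1361, 905 and 1009, so its controls were themselves about as far apart as the group means. Alas1, the first enzyme of heme synthesis, read 4250 and 3798 on the controls and 3822, 8662 and 19626 with DCAC. A single liver, DCAC 3, carried most of its difference of 1.11, which was 0.52 without it.

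Cyp7a1 was the only bile acid gene of 28 that passed. For 13 of the 28, all DCAC arrays exceeded both controls and for 0 they were all below (12.9% and 11.6% of all genes). The median was 0.11, and 0.02 with quantile normalization. Cyp8b1, which sets the cholic acid share of the pool, read 6887 and 13099 on the controls and 16425, 14767 and 14548 with DCAC. Its controls differed by more than any pair of treated livers, and the difference of 0.68 did not pass (limma adjusted p = 0.792). Nr1h4, the bile acid receptor FXR, was at 0.51 and Abcb11, the bile salt export pump, at 0.36. Nr0b2, which encodes SHP, a repressor of Cyp7a1, read 2973 and 805 on the controls and 2208, 785 and 916 with DCAC. The groups overlapped fully for Nr0b2.

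Fatty acid synthesis genes held several of the lower values. Of 23 measured, 5 had an unadjusted p under 0.05 and a lower signal, against 2.61% of all genes, and none passed. The list's median of -0.10 was 0.03 without control 1 and -0.28 without control 3, so the list as a whole has no settled direction. Angptl8, an insulin-induced secreted regulator of lipoprotein lipase, read 4111 and 2302 on the controls and 1104, 962 and 540 with DCAC (-1.89, limma adjusted p = 0.0954). Srebf1, the transcription factor of lipogenesis, read 14055 and 10430 against 8081, 5900 and 6885 (-0.81, limma adjusted p = 0.344). The treated livers lay below both controls for each. Pnpla3, a lipid droplet protein under Srebf1, read 2988 and 1098 on the controls and 740, 612 and 542 with DCAC, a difference of -1.53. Fasn, fatty acid synthase, read 17511 and 10758 against 10079, 8126 and 4885. Its difference of -0.90 was -0.60 without DCAC 3, and control 3 was close to the highest treated liver.

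Cholesterol synthesis genes were split, with 10 of 22 higher and a median of -0.01. Dhcr7, the last enzyme of the pathway, was at 0.38, Ebp, a sterol isomerase, at 0.39, Insig2, which retains SREBP in the endoplasmic reticulum, at -0.30 and Mvd at -0.52. Targets of PPARA, the fatty acid receptor, had a median of 0.05 over 29, and -0.04 without DCAC 3. Cpt1a, which admits fatty acids to mitochondria, stood at 0.54 and Angptl4, an inhibitor of lipoprotein lipase, at 0.67. Acot1, a thioesterase, stood at -1.19 and Pdk4 at -0.95, so the list did not lean in 1 direction.

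Genes of dichloroacetate handling showed no change that passed. Dichloroacetate, the acid that both compounds can release in water, inhibits the pyruvate dehydrogenase kinases and is metabolised by Gstz1, which it inactivates as a protein. Gstz1 read 12138 and 14712 on the controls and 16147, 12837 and 12944 with DCAC, a difference of 0.06 (95% interval -0.42 to 0.53). Pdk1 was at 0.09 and Pdk2 at 0.08, with groups that overlapped. Pdk4 read 830 and 756 on the controls and 547, 474 and 268 with DCAC, all lower (limma adjusted p = 0.919). The neighbouring enzymes of tyrosine breakdown were at 0.27 for Hgd and 0.28 for Fah. Of 32 cytochrome P450 genes and regulators 0 passed: Cyp3a16 was at 1.05, Cyp2c39 at 0.44, Cyp2e1, an ethanol-inducible P450, at 0.29, and Nr1i2, the xenobiotic receptor PXR, at -0.35. Among 37 glutathione and NRF2 genes, 3 had an unadjusted p under 0.05 and a lower signal (2.61% of all genes): Gstm3 at -0.91, the epoxide hydrolase Ephx1 at -0.50 and Gstm2 at -0.42. Gclm, a subunit of the rate-limiting enzyme of glutathione synthesis and a standard NRF2 target, was at 0.32.

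Lower values were also found in nitrogen and polyamine metabolism. Ass1, argininosuccinate synthase of the urea cycle, read 3478 and 3634 on the controls and 1863, 978 and 1397 with DCAC (-1.38, limma adjusted p = 0.176). It was the only gene of 12 in the urea cycle and ammonia list with an unadjusted p under 0.05, and the list's median was -0.01. Srm, spermidine synthase, read 3296 and 2649 against 1968, 1316 and 1473 (-0.92, limma adjusted p = 0.316), and Odc1, ornithine decarboxylase, was at -0.52. Cth, which makes cysteine from cystathionine, was at 0.30 with overlapping groups. Among 21 genes of gluconeogenesis and insulin response, Depp1, a FOXO target, read 4286 and 2750 on the controls and 9376, 9981 and 6310 with DCAC, a difference of 1.29 that did not pass (limma adjusted p = 0.448). Fbp1 was at 0.30, Pcx, pyruvate carboxylase, at 0.29 and Trib1 at 1.36, the last with control 3 at the floor.

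Among immediate early genes was the probe set that differed between the 2 compounds. Dusp1, a phosphatase that switches off MAP kinases, read 3064 and 2365 on the controls and 1804, 1601 and 1360 with DCAC. All treated livers were lower, and the difference of -0.77 did not pass (limma adjusted p = 0.560). DCAC minus DCAA was -1.53 (95% interval -1.91 to -1.15, limma adjusted p = 0.0269). The limit set by the pyruvate carboxylase ratio applies to this difference too. Sgk1, a kinase induced by glucocorticoids, read 825 and 2961 on the controls and 683, 483 and 367 with DCAC (-1.66). Its controls were further apart than the treated livers were from control 1.

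Clock genes differed among the treated livers as much as between groups. Dbp, an output factor of the circadian clock, read 195 and 162 on the controls and 1090, 232 and 3404 with DCAC, a difference of 2.42 (limma adjusted p = 0.855). Per2 was at 0.90, Nr1d2 at 0.60 and Tef at 0.67, with all treated arrays above both controls. Npas2 at -1.59 and Cry1 at -1.01, chosen after their values were seen, had all treated arrays below both controls. DCAC 2 was the treated liver nearest to the controls for all 6 of these genes. Npas2 and Cry1 did not pass the filter in every alternative, and were tested in 17 and 16 of the 21 without control 2. Of 17 clock genes 4 were higher and 2 lower at an unadjusted p under 0.05, against 2.86% and 2.61% of all genes, and none passed. In the growth hormone list of 16, Igfbp3 was at -0.56, Cish, a target of STAT5, at 0.74 and Onecut1 at 1.14, the last 2 with overlapping groups.

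**Figure D3:**
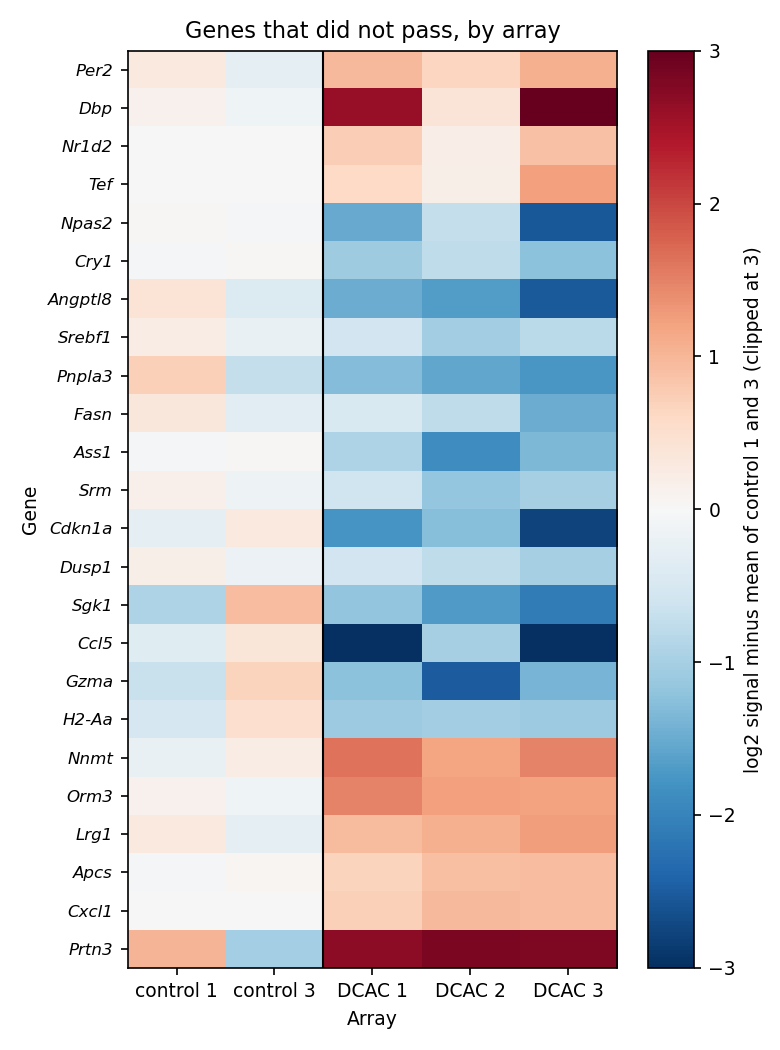
log2 signal of 24 genes that did not pass, on each of the 5 arrays, minus the mean of control 1 and control 3; red is higher, blue is lower, and the colour stops at 3 in either direction. DCAC 2 is palest among the treated livers for the clock genes at the top, while the acute phase genes Orm3, Lrg1 and Apcs near the bottom are alike in all 3.

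Neutrophil transcripts had the highest median of the lists, 0.78. Of 11 measured markers, Lcn2 rose, 6 had all DCAC arrays above both controls and 1 had them below, beside 12.9% and 11.6% of all genes. The filter asks for 3 arrays above their median, which the 3 DCAC arrays can meet and the 2 controls alone cannot. Elane, below, was under the control medians of 176.9 and 173.8 and was kept through treated arrays. The count and the median, which includes Lcn2, thus draw in part on genes kept for their treated signals. Prtn3, a serine protease of neutrophil granules, read 222 and 45.0 on the controls and 711, 778 and 761 with DCAC (2.77, limma adjusted p = 0.0648). Control 3 was at the floor for Prtn3, and the difference ran from 1.75 to 3.79 over the alternatives. Elane, neutrophil elastase, read 118 and 122 against 328, 281 and 282 (1.31), and Ltf, lactoferrin, was at 0.83. The summed signal of 13 neutrophil markers without Lcn2 was 2353 to 2473 on the controls and 3299 to 3689 with DCAC. Lcn2 thus made up most of the marker sum on the treated arrays, 36211 to 43606 with it, and the part of neutrophils in its rise was not tested. Cxcl1, a chemokine that attracts neutrophils, read 1138 and 1173 on the controls and 1898, 2262 and 2191 with DCAC (0.87, limma adjusted p = 0.108).

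Markers of T and NK cells had a median of -0.38, and none passed. Of 11 measured, 7 had every DCAC array below both controls and 0 above, while 11.6% and 12.9% of all genes did. Ccl5, a chemokine of cytotoxic lymphocytes, read 383 and 641 on the controls and 60.5, 249 and 24.6 with DCAC, a difference of -2.46 (limma adjusted p = 0.710) with DCAC 3 at the floor. Gzma, granzyme A, read 217 and 552 against 148, 61.5 and 131 (-1.71), Gzmk was at -1.41 and Nkg7 at -1.16. The treated livers were lower for all 4 genes, whose signals are low beside a floor of 48.7 to 55.4 on these arrays. The summed signal of 24 markers was 5168 to 6137 on the controls and 4184 to 4262 with DCAC. Fcer2a, a B cell receptor for immunoglobulin E, stood at -2.06 in a list of 10 B and plasma cell markers with a median of -0.04.

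Macrophage, interferon and antigen presentation genes depended on control 3. The summed signal of 23 Kupffer cell and macrophage markers was 21531 on control 1 and 58273 on control 3, and 24881 to 32978 on the DCAC arrays. Marco, a scavenger receptor, read 148 and 1588 on those controls, C1qa 1151 and 5545, and Timd4 282 and 743, with DCAC values between or near the lower control. The median of 21 measured markers was -0.38, and 0.40 without control 3, so no direction can be given. Of 38 interferon response genes 8 had every DCAC array below both controls and 3 above (11.6% and 12.9% of all genes), and the median of -0.32 was 0.01 without control 3. Rsad2, an antiviral enzyme, stood at -1.02, Irgm1 at -0.83 and Gbp7 at -0.80, and the T cell chemokine Cxcl9 at -1.19. Cxcl10, from the same chemokine family, was at 0.88. The MHC class II chain H2-Aa read 960 and 1947 on the controls and 644, 659 and 646 with DCAC (-1.07, limma adjusted p = 0.655). H2-Ab1 was at -0.69, H2-Eb1 at -0.70 and Cd74, the invariant chain, at -0.87. For 9 such genes the median was -0.48, and -0.14 without control 3.

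Other cell markers and stress genes gave values that did not pass. Stellate cell markers summed to 18633 to 18811 on the controls and 15365 to 16521 with DCAC. Of 15 measured, 6 had every treated array below both controls and 1 above, against 11.6% and 12.9% of all genes. Their median was -0.23, and 4 of the 15 had a positive difference, up to 0.47. Among the 6 below were Colec10 at -0.60, Ecm1 at -0.44 and Reln at -0.37. Endothelial markers had a median of -0.27, with Lyve1 at -0.90, Eng at -0.42 and Kdr at -0.37. That median was -0.0049 without DCAC 3, whose endothelial sum of 10915 was the lowest of the 5 arrays. Creld2, a chaperone of the endoplasmic reticulum, read 4619 and 3024 on the controls and 2258, 2045 and 1063 with DCAC (-1.14). Manf, induced by the same stress response, was at -0.81, the heat shock gene Hspb1 at -0.72 and Pdia6 at 0.37. Cdkn1a, the p53-induced cell cycle inhibitor p21, read 602 and 890 on the controls and 214, 300 and 106 with DCAC (-1.95, limma adjusted p = 0.364). Of 17 p53 targets 6 had a positive difference, 2 had every treated array above and 3 every treated array below both controls (12.9% and 11.6% of all genes), and the median was -0.06, or 0.02 without control 3. Fas was at 0.76, and Plk3 was at 1.73 with overlapping groups and 0.19 to 3.27 over the alternatives. Ccnd1, cyclin D1, stood at -1.11, in a proliferation list of 19 with a median of -0.12, which was 0.10 without DCAC 3.

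**Figure D4:**
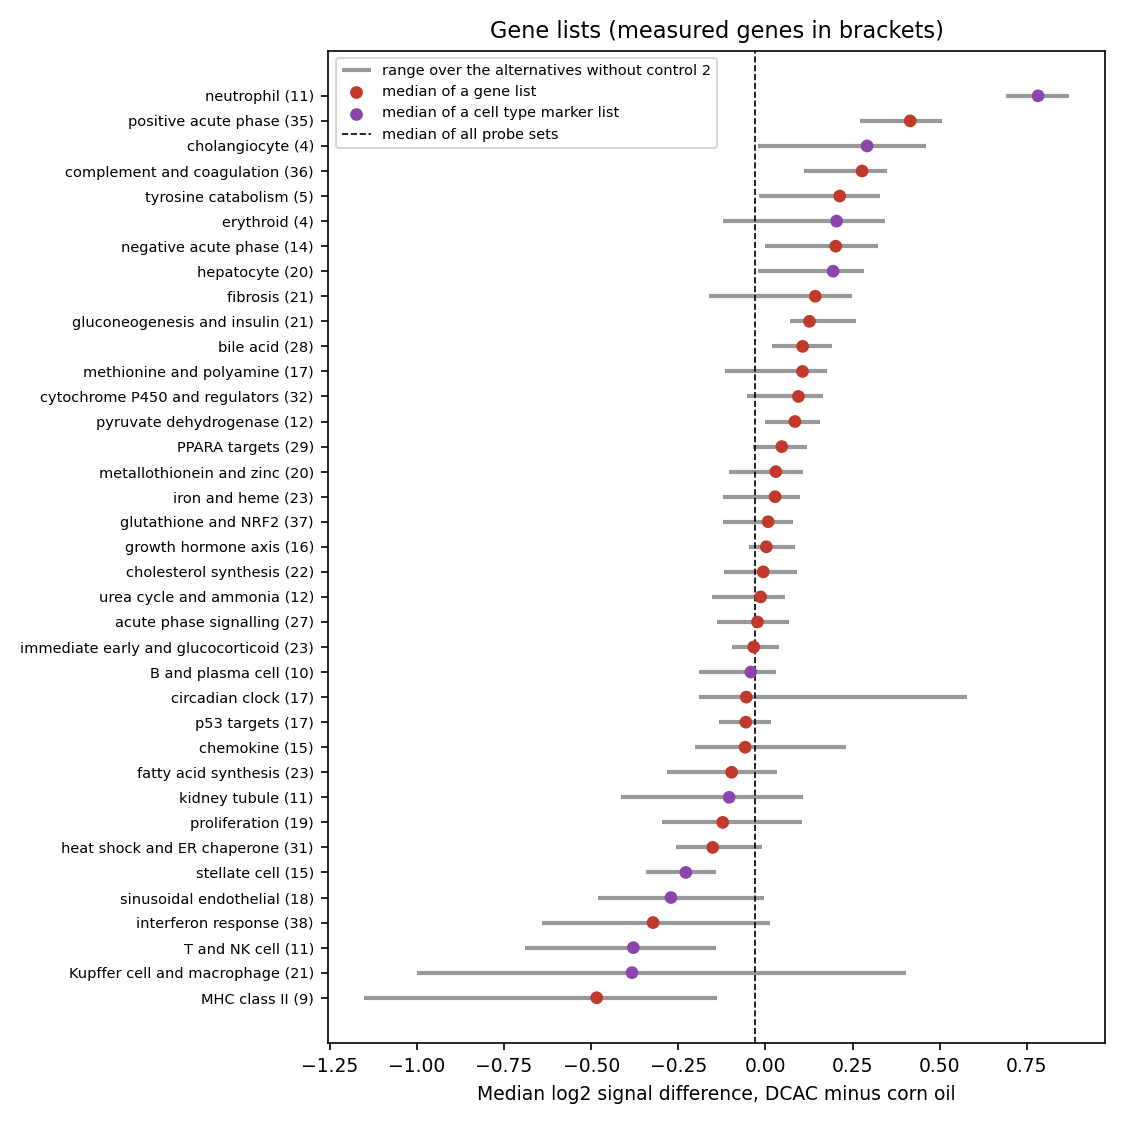
Median log2 difference, DCAC minus corn oil, of each gene list (red) and cell type marker list (purple), with the number of measured genes in brackets; grey bars run over the alternatives without control 2, and the dashed line is the median of all probe sets. Neutrophil (0.78) and acute phase (0.42) lists lie furthest right, and MHC class II (-0.48) lies furthest left with a wide bar.

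Other genes with at least 1.5-fold differences and no overlap did not pass. Of 12293 genes there were 304 such genes on the positive side and 395 on the negative side. Without the fold limit, 12.9% of all genes had every DCAC array above both controls and 11.6% every one below. Separation of 3 arrays from 2 is thus common and is not by itself a sign of an effect. Cyb561, an electron carrier of vesicle membranes, read 127 and 75.2 on the controls and 431, 537 and 438 with DCAC (2.25, limma adjusted p = 0.0584). Its controls were under their array medians of 176.9 and 173.8, and its DCAC arrays were enough to meet the filter. The count of 304 thus includes genes kept through treated arrays, such as Cyb561 and Hkdc1. Slc3a1, a subunit of a cystine and dibasic amino acid transporter, read 1324 and 1377 against 3470, 3298 and 2474 (1.17, limma adjusted p = 0.105). The controls agreed closely for Slc3a1, and each treated liver stood above them. Tmem98 was at 0.94, Csrp3, a muscle LIM protein, at 1.20, and Hkdc1, a hexokinase, at 2.20 with both controls at the floor. Among the lowest were Chka, choline kinase, at 3377 and 2189 on the controls and 1060, 1427 and 787 with DCAC (-1.36, limma adjusted p = 0.285). Spg20 was at -0.86 and the noncoding transcript Kantr at -1.03. Mycn, a MYC family transcription factor, stood at -2.23 with 2 treated arrays at the floor.

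**Figure D5:**
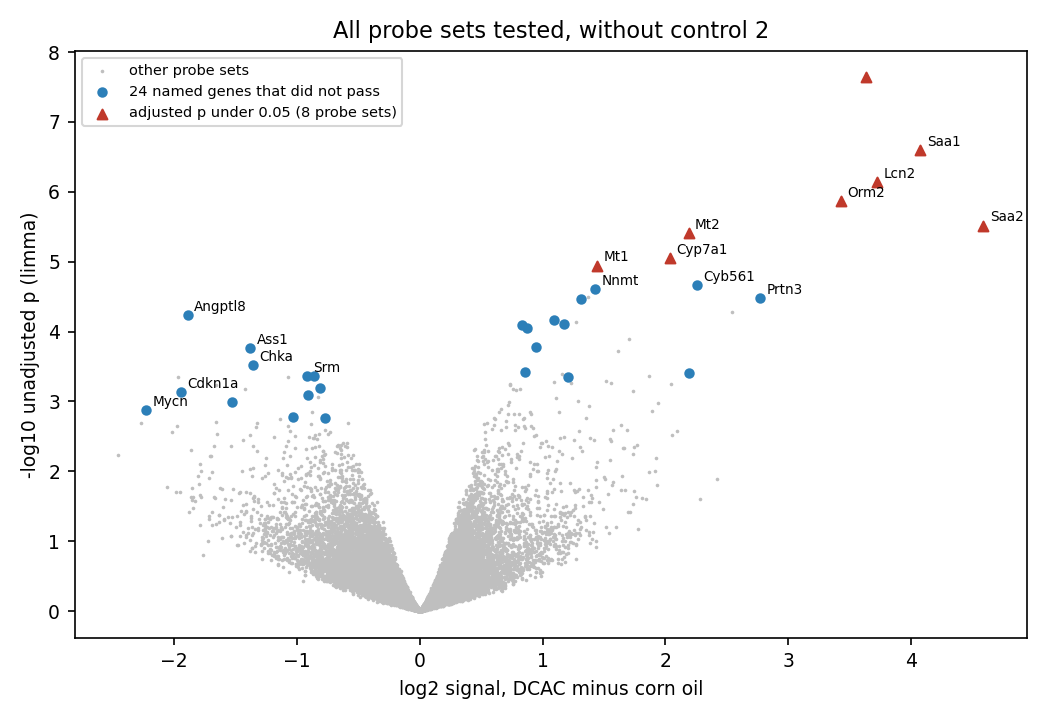
Each point is 1 of 24531 probe sets: log2 difference, DCAC minus corn oil, on the horizontal axis and -log10 of the unadjusted limma p on the vertical axis. Red triangles are the 8 probe sets that passed, all on the right (the unlabelled one is the second Saa1 probe set), and blue points are the 24 genes named by rule that did not pass, such as Cyb561, Prtn3 and Angptl8.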

How the data were processed

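The deposited values are linear probe set intensities that the authors made with the Affymetrix software GCOS (version not given in the sources used here), per the submitters' processing notes. Every array had a mean of 500.0 after trimming 2% of probe sets at each end. No 2 arrays had identical columns. Precision is limited by the number of mice.

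Each array was floored at its own 25th percentile before taking log2. Manufacturer control probe sets were left out, and a probe set was kept if it exceeded the median of its array on at least 3 of 8 arrays. limma 3.58.1 in R 4.3.3 (lmFit, eBayes with trend) fitted the DCAC, DCAA and control groups without covariates, and tests were two-sided with Benjamini-Hochberg adjustment. The fit was tested on simulated data.

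The gene lists, the rule and the genes compared were chosen with earlier results of these data known. Named genes are those that passed, then up to 12 per direction of at least 1.5-fold without overlap by p, up to 4 of smallest p per list, and a fixed set that includes the Pdk genes and Gstz1. Clones and predicted genes were not named. A gene is given by its kept probe set of highest mean signal. Motifs were searched on both strands. The pyruvate carboxylase ratio class cuts at the largest gap in the log ratio, 5.07. Same-numbered mice were not taken as pairs, since their deviations from the group means correlated at -0.0408 to 0.0275 across groups. For differently numbered mice the range was -0.0664 to 0.0736. Alternatives were other scalings, floors, filters, fits and blocks, and leaving out each array.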

Additional observations from a re-analysis of the deposited data

Results flagged for a closer look

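Dusp1 differed between the compounds by a test of the difference itself, at -1.53 in log2 signal (DCAC minus DCAA, limma adjusted p = 0.0269). Its 3 DCAC signals also lay under both controls. The pyruvate carboxylase ratio was high on every DCAA array and, among the DCAC arrays, on DCAC 3 only. The part of that ratio in the Dusp1 difference was not tested.

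Umod, a kidney tubule gene, had a signal of 20921 on control 2, an array outside the comparison, where the other 8 arrays read 8.90 to 143.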

How the results depend on the processing

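All 8 probe sets that rose with DCAC kept their direction under every alternative that tested them, and at least 1 Saa1 probe set passed in 20 of 22 of them, against 11 of 22 for Mt1 and for Cyp7a1. The count of 8 was 0 with control 2 included, 0 in eBayes without trend (1131 at an unadjusted p under 0.05), 1 with robust eBayes, 1 without the filter, 2 with a block for the pyruvate carboxylase ratio class (which leaves DCAC 3 out of the difference) and 30 with array weights (27 higher, 3 lower). Leaving out a DCAC or DCAA array gave 2 (without DCAC 3) to 14 (without DCAA 1, 13 higher and 1 lower) over all probe sets. Of the 8 themselves, 2 (without DCAC 3) to 8 (without DCAC 1 or DCAA 1) passed in those fits. Leaving out control 1 or control 3 leaves 1 control array, so those counts are not given. With replicate number as a block the count was 7. The common median moved the share of positive differences at an unadjusted p under 0.05 from 49.19% to 64.84%, leaving out control 3 moved it to 63.45% and no filter to 36.57%. For DCAC minus DCAA the count of 1 was 0 with control 2, with a common median, without the filter and without trend. It was 2 with the groups compared alone and 0 to 2 without an array. The block for the pyruvate carboxylase ratio class leaves DCAC 3 as the only DCAC array in this difference, so its count is not given. The common median moved the median of all probe sets to 0.17.

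Of 2860 log2 differences of 132 named genes under alternatives, 2733 kept direction and side of the threshold, 60 no longer passed, 29 newly passed and 38 turned sign, none of a gene that had passed; the causes were not tested. With control 2 these were Pdk2 (-0.31), Gstm3 (0.11), Cxcl9 (0.12), Ecm1 (0.13), C1qa (0.21), Timd4 (0.31), Fasn (0.32), Nr1i2 (0.38), Stat3 (0.45), Socs3 (0.52), Reln (0.63), Ephx1 (0.67), Colec10 (0.74), Cebpb (0.77), Slc30a10 (0.77), Nr0b2 (0.80), Insig2 (0.94) and Hamp (2.23). Quantile normalization turned Alb (-0.0031), Ttr (-0.024) and Gstz1 (-0.12), the common median Stat3 (0.062), and the replicate block Hamp (0.027) and Stat3 (0.057). Differences of 11 genes turned when an array was left out. They ran for Hamp from -0.57 (without DCAC 3) to 0.15 (without DCAC 2), Cebpb from -0.42 (without control 1) to 0.044 (without control 3), Cebpd from -0.97 (without control 1) to 0.58 (without control 3), Stat3 from -0.26 (without DCAC 3) to 0.24 (without DCAC 1), Socs3 from -0.86 (without control 3) to 0.084 (without control 1), Nr0b2 from -1.35 (without control 3) to 0.54 (without control 1), Pdk1 from -0.21 (without control 3) to 0.39 (without control 1), Pdk2 from -0.078 (without DCAC 1) to 0.23 (without DCAC 2), Gstz1 from -0.082 (without control 1) to 0.20 (without control 3), C1qa from -1.82 (without control 1) to 0.45 (without control 3) and Timd4 from -1.37 (without control 1) to 0.029 (without control 3). Of 814 list medians 86 moved by more than the spread between replicates.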
